A study of Mus musculus with 10 samples.

Results

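The metalloproteinases and their tissue inhibitors (TIMPs) were taken as every protein-coding gene whose symbol is Mmp, Adam, Adamts or Timp followed by a number. The rule found 79 genes among the 21669 protein-coding genes of the deposited tables: 23 Mmp, 33 Adam, 19 Adamts and 4 Timp genes, quantified over 333 transcripts. The rule used names only and no measured value. Matrix metalloproteinases (MMPs), the disintegrin metalloproteinases (ADAMs) and their relatives with thrombospondin repeats (ADAMTS) are zinc proteinases that cut matrix proteins, growth factors, cytokines and receptors at the cell surface. TIMPs are small proteins that bind the active site of these enzymes and block it. After nerve injury this system is known for opening the blood-nerve barrier, releasing cytokines, remodelling the matrix around axons and processing myelin proteins.

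The samples were dorsal root ganglia (DRG), which hold the cell bodies of sensory neurons, from female and male C57BL6/J mice aged 6 to 8 weeks. The left sciatic nerve was exposed at mid-thigh and either cut across its whole width (axotomy) or left intact (sham). At 24 h, the L4 and L5 DRG of the operated side were collected, so every sham library also carries the response to anaesthesia, skin and muscle surgery. Each library pooled 2 mice, which gave 2 sham and 3 axotomy libraries for females and the same numbers for males. All mice had isoflurane anaesthesia. The design asks which genes respond to axotomy in each sex, and whether the response differs between the sexes.

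The 10 libraries held 55258476 to 90111671 estimated read counts over all genes. Genes of the 8-gene sensory neuron marker list summed to between 7072 and 8246 scaled TPM (transcript abundance per length and library size), so the labelled tissue carried its defining markers in every library. The summed levels of several other cell types differed between groups. The 10 fibroblast and meningeal markers summed to 511 and 525 scaled TPM in male sham and to 763, 1247 and 1640 in male axotomy, with male axotomy 2 the lowest of its group, against 673 and 739 in female sham and 597 to 681 in female axotomy. The 10 macrophage markers summed to 57.4 and 60.0 in male sham, 122 to 211 in male axotomy, 71.9 and 90.2 in female sham and 92.9 to 127 in female axotomy. In males the sums were also higher in axotomy than in sham for myelinating Schwann cells (7168 to 9749 against 5020 and 5591), satellite glia (5070 to 5544 against 4614 and 4655) and mast cells (52.5 to 83.3 against 43.3 and 44.0). In females these sums were 4738 to 6977 against 5644 and 7863, 3697 to 3866 against 4215 and 4732, and 40.4 to 44.5 against 48.7 and 51.2. A sum need not hold for each marker. Of the 5 satellite glia markers, 2 were called higher in males at padj under 0.1 (40%, beside 22.6% of all genes) and none lower. In females 1 was called higher (20%, beside 10.5%) and 3 lower (60%, beside 9.7%). The 9 neutrophil and monocyte markers were highest in female axotomy 1, at 473 against at most 268 in any other library, and the 8 skeletal muscle markers were highest in female axotomy 2, at 161 against at most 32.0. All 76 genes of the marker lists had reads and were tested. In bulk tissue, fewer cells of a type and less RNA per cell cannot be told apart, and the part of these shifts in the results given here was not tested.

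**Figure D1:**
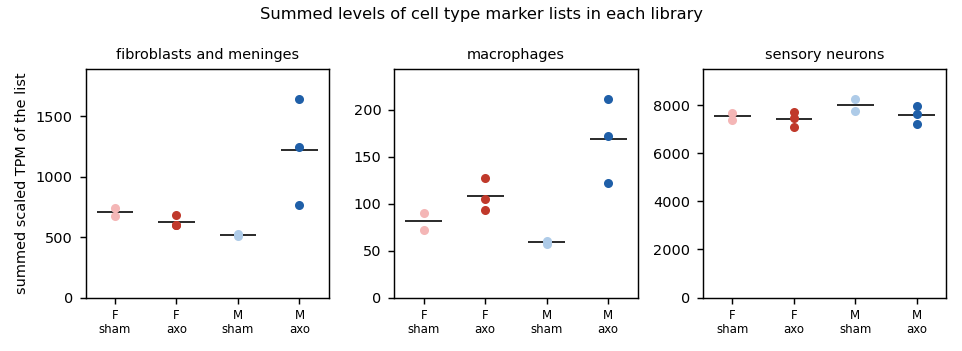
Summed scaled TPM of the marker genes of fibroblasts and meninges, macrophages and sensory neurons (vertical axes, from 0) in each of the 10 libraries, by sex (F, M) and surgery (axo, axotomy). Points are libraries and bars are group means. The fibroblast sum reached 763 to 1640 in male axotomy and stayed between 511 and 739 in the other groups, while the neuronal sum stayed between 7072 and 8246.

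Of the 79 genes, 68 had reads and 11 had none in any library (Mmp1a, Mmp1b, Mmp7, Mmp10, Mmp20, Adam6a, Adam20, Adam26a, Adam26b, Adam29 and Adam34). Another 13 had reads but too few to be tested, which left 55 tested genes. At least 1 TPM in a group was reached by 39 genes, at least 10 TPM by 20 and at least 100 TPM by 4 (Timp2, Adam23, Timp3 and Adam22). Levels are given per transcript length as scaled TPM, that is, the authors' TPM summed per gene and multiplied by a factor for each library. The factor puts levels and fold changes on the same scale. It was 0.925 to 0.946 in the sham libraries and 0.982 to 1.12 in the axotomy libraries. Printed axotomy levels are therefore raised relative to sham, beside the deposited TPM. Statements on the order or overlap of sham and axotomy, marker sums included, hold for scaled TPM.

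Inhibitor transcripts outnumbered MMP transcripts in every library. The 4 TIMP genes summed to 465 to 567 scaled TPM and the 23 Mmp genes to 134 to 154, a ratio of 3.05 to 4.03. The ratio lay between 3.82 and 4.03 in the 4 sham libraries and between 3.05 and 3.56 in the 6 axotomy libraries, with no overlap. The 33 Adam genes summed to 495 to 614 scaled TPM and the 19 Adamts genes to 58.3 to 68.0. Within the ADAMs, Adam11, Adam22 and Adam23 held 217 to 373 scaled TPM. These 3 genes encode neuronal surface proteins that lack a working protease site, and Adam22 and Adam23 act as receptors for the secreted LGI proteins.

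**Figure D2:**
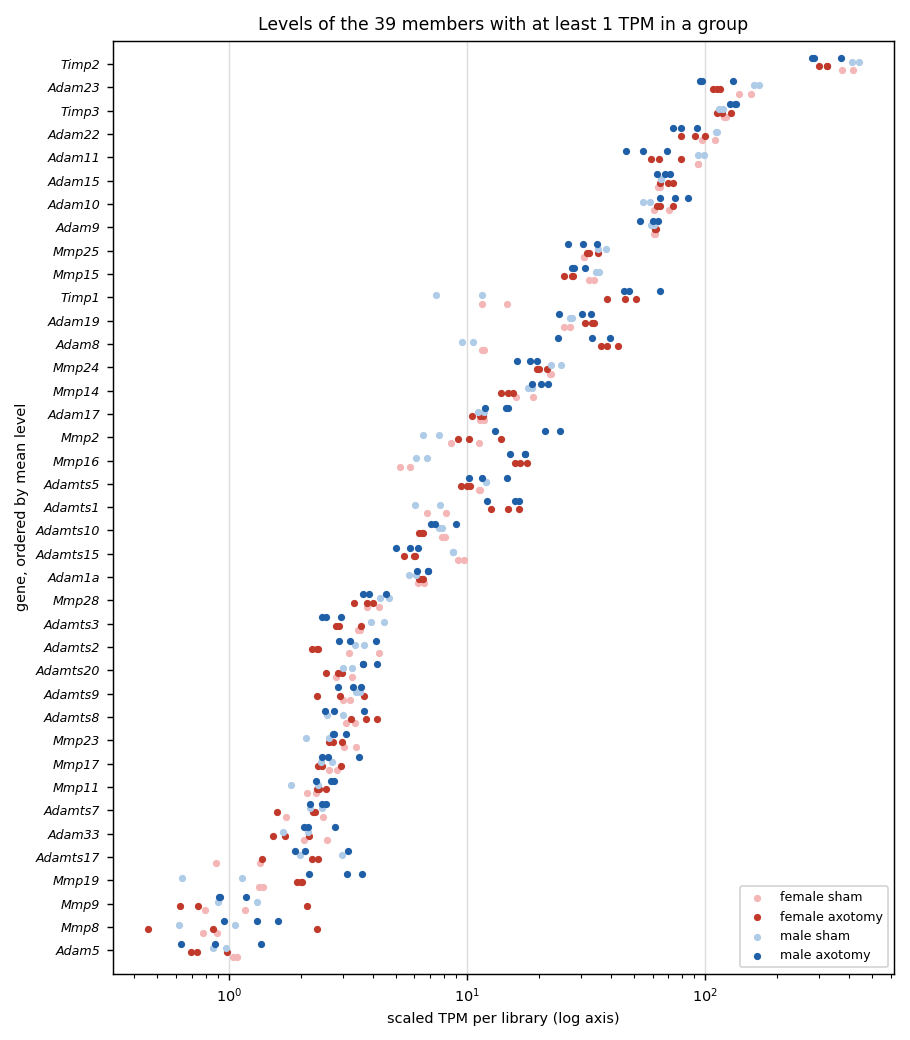
Level of the 39 genes that reached 1 TPM in a group, as scaled TPM in each library (horizontal log axis), ordered by mean level. Timp2 was highest and Adam23 and Timp3 followed, whereas Mmp9 and Mmp8 lay near 1 TPM; points of sham and axotomy separate widely for Timp1, Adam8, Mmp16 and Adamts1.

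In females, axotomy against sham called 5 of the 55 tested genes higher (9.09%) and 9 lower (16.4%) at padj under 0.1 (edgeR). Over all 20836 genes tested, 10.5% were called higher and 9.7% lower in females. In males, 12 were called higher and 12 lower (21.8% each), where 22.6% of all genes were called higher and 19.4% lower. The male shares were near those of all genes, and the median log2FC of the 55 genes was -0.06 in females and 0.05 in males, beside 0.00 and 0.04 over all genes. A total of 27 genes were called in either sex. The shares of all genes called in either sex or in both are not given here. Timp1, Adam8, Mmp16 and Adamts1 were higher in both sexes, and Timp2, Adam11, Adam23, Adamts6, Adamts15 and Mmp15 were lower in both. With levels taken from the TPM as deposited, without the library factors, the males had 7 genes higher and 15 lower, because that scale moved the median log2FC of all genes to -0.12 in females and -0.16 in males.

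**Figure D3:**
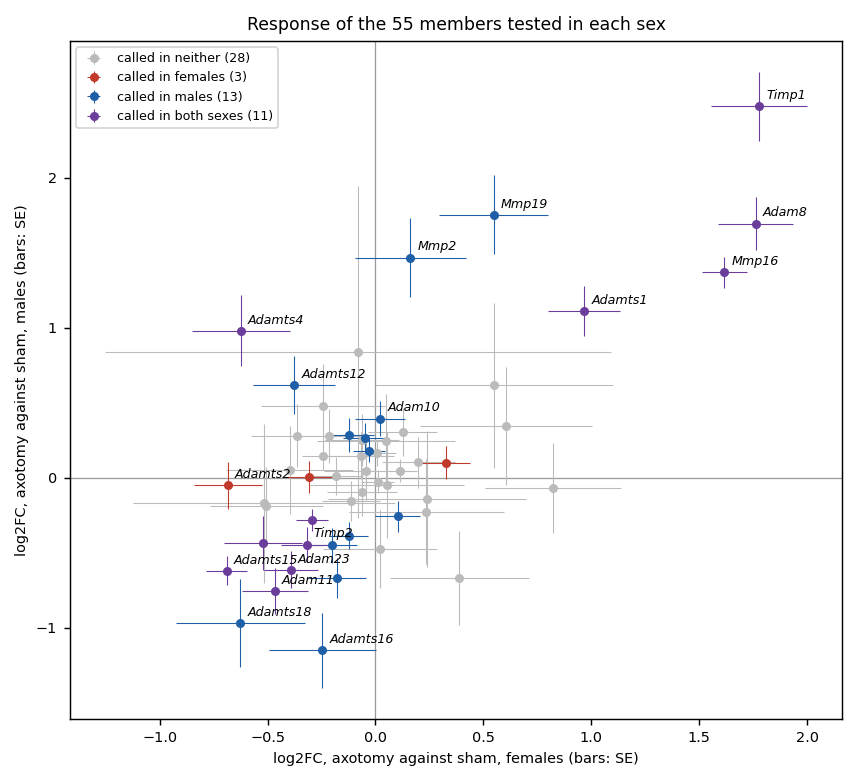
log2FC of axotomy against sham in females (horizontal axis) and males (vertical axis) for the 55 tested genes, with bars of 1 SE, coloured by the sex in which padj was under 0.1. Timp1, Adam8, Mmp16 and Adamts1 sit in the upper right, 11 genes were called in both sexes, 13 in males alone, 3 in females alone and 28 in neither; Adamts4 is the gene called in opposite directions.

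The TIMPs moved in different directions. Timp1, a secreted inhibitor that also acts as a growth factor, measured 14.7 and 11.5 scaled TPM in female sham and 51.0, 45.8 and 38.7 in female axotomy. It measured 7.38 and 11.6 in male sham and 64.6, 48.0 and 45.3 in male axotomy. Every axotomy library stood above every sham library of either sex. The rise was 3.43-fold in females (log2FC 1.78, SE 0.22, padj 0.00133) and 5.57-fold in males (2.48, SE 0.23, padj 0.000268). Male minus female, the log2FC differed by 0.70 (SE 0.30), which did not pass over all genes (padj 0.422). The levels of the sexes overlapped in axotomy, and in sham the male mean was lower by a log2 difference of -0.48 (SE 0.24, padj 1). Timp1 lies on the X chromosome and was the only X-linked gene of the 79.

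Timp2, which inhibits MMPs and also helps MMP14 to activate pro-MMP2, was the most abundant gene of the set. It measured 375 and 415 scaled TPM in female sham and 301, 326 and 325 in female axotomy. In males it measured 412 and 441 in sham and 282, 372 and 286 in axotomy. Axotomy libraries lay below sham in each sex. It fell by 0.32 on the log2 scale in females (SE 0.12, padj 0.0993) and by 0.45 in males (SE 0.12, padj 0.0147). Without male sham 2 the male call was lost (padj 0.114), and the female call was lost in 7 of the 10 fits that left out a library, with padj up to 0.469.

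Timp3, which is held in the matrix and inhibits ADAM17 and the ADAMTS aggrecanases as well as MMPs, measured 123 and 120 scaled TPM in female sham and 128, 117 and 112 in female axotomy, which overlapped. In males it measured 119 and 114 in sham and 134, 127 and 134 in axotomy. The male log2FC was 0.18 (SE 0.07, padj 0.0832), and on the deposited TPM scale it was -0.02 (padj 0.869), so its direction depended on the scaling. The male call was also lost in 7 of the 10 fits that left out a library. Over its alternatives, padj for Timp3 in males ran from 0.0397 to 0.869. Timp4 stayed between 0.0595 and 0.122 scaled TPM, with log2FC 0.24 (SE 0.36, padj 0.712) in females, and in males -0.23 (SE 0.35, padj 0.657). Timp1 made up 1.37% to 2.87% of TIMP transcripts in the sham libraries and 8.15% to 13.4% in the axotomy libraries, while Timp2 made up 73.2% to 77.9% in sham and 58.6% to 68.3% in axotomy.

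In the annotation, Timp1, Timp3 and Timp4 each lie inside a synapsin gene on the opposite strand (Syn1, Syn3 and Syn2). Of the exon bases of Timp3, 21.28% are shared with the opposite strand, and none of those of Timp1. The libraries were stranded, but the strand setting of the quantification was not given in the sources used here, and Timp3 is therefore reported as uncertain in this respect.

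Adam8 also rose in both sexes. It encodes an active sheddase best known from myeloid cells and activated glia. It measured 11.5 and 11.7 scaled TPM in female sham and 42.9, 38.7 and 36.6 in female axotomy, and 9.54 and 10.5 in male sham and 39.9, 33.4 and 24.2 in male axotomy. No axotomy library reached down to the sham level. The rise was 3.39-fold in females (log2FC 1.76, SE 0.17, padj 0.000559) and 3.24-fold in males (1.70, SE 0.17, padj 0.000402). The neutrophil and monocyte sum was 473, 181 and 142 scaled TPM in female axotomy 1 to 3 and 210, 163 and 268 in male axotomy 1 to 3, and its part in the Adam8 values was not tested.

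Mmp16 encodes MT3-MMP, a membrane-bound MMP found in neural tissue. It measured 5.19 and 5.77 scaled TPM in female sham and 16.7, 17.9 and 15.9 in female axotomy. In males it measured 6.79 and 6.12 in sham and 17.4, 17.5 and 15.1 in axotomy. The groups were far apart and the libraries within each were close. Mmp16 had the smallest padj of the set in each sex, with log2FC 1.62 (SE 0.10, padj 5.78e-05) in females, and in males 1.37 (SE 0.10, padj 0.000124).

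Adamts1, a secreted proteinase that cuts the proteoglycans aggrecan and versican, measured 6.78 and 8.17 scaled TPM in female sham and 16.5, 14.8 and 12.6 in female axotomy. In males it measured 6.03 and 7.68 in sham and 15.8, 16.5 and 12.1 in axotomy. Sham and axotomy did not overlap across the sexes. The log2FC was 0.97 (SE 0.17, padj 0.00591) in females, and in males 1.11 (SE 0.17, padj 0.00154). Adamts5, the other main aggrecanase and the neighbour of Adamts1 on chromosome 16, was not called (log2FC -0.18, SE 0.12, padj 0.36 in females, and in males 0.01, SE 0.12, padj 0.949). Timp1, Adam8, Mmp16 and Adamts1 were called higher in both sexes in every alternative run.

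**Figure D4:**
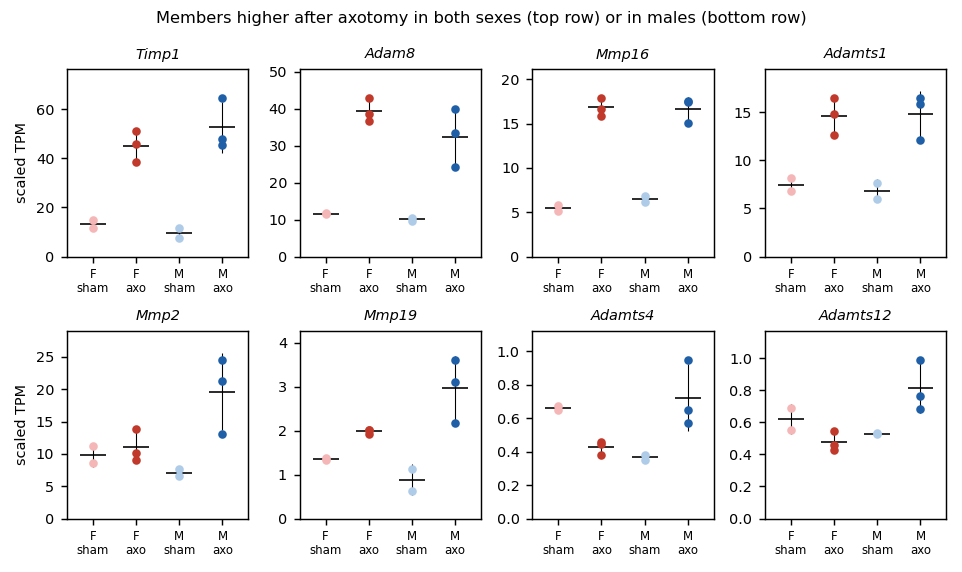
Scaled TPM (vertical axes, from 0) of 8 genes in each library by sex (F, M) and surgery (axo, axotomy), with horizontal bars at group means and vertical lines of 1 SD. Timp1, Adam8, Mmp16 and Adamts1 (top) are higher in axotomy in both sexes; Mmp2, Mmp19, Adamts4 and Adamts12 (bottom) were called higher in males, and Adamts4 was called lower in females.

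Other genes were called higher in males and not in females. Mmp2, the gelatinase A that cuts denatured collagen and basement membrane, measured 7.61 and 6.55 scaled TPM in male sham and 21.3, 13.0 and 24.6 in male axotomy (log2FC 1.47, SE 0.27, padj 0.00327). In females it measured 11.2 and 8.53 in sham and 13.8, 10.2 and 9.12 in axotomy, which overlapped (0.16, SE 0.26, padj 0.724). Mmp19, a secreted MMP of basement membrane and matrix, measured 0.631 and 1.13 in male sham and 3.12, 2.17 and 3.61 in male axotomy (1.75, SE 0.26, padj 0.00151). In females it measured 1.33 and 1.38 in sham and 2.01, 2.02 and 1.92 in axotomy, without overlap (0.55, SE 0.25, padj 0.176). Both genes had their lowest male axotomy value in male axotomy 2. That library had the lowest sum of its group for fibroblasts and meninges (763), macrophages (122), myelinating Schwann cells (7168) and satellite glia (5070). The same held for mast cells (52.5), neutrophils and monocytes (163) and smooth muscle and pericytes (130), so the fibroblast sum was not alone in this. In the annotation used for positions, 28.33% of the exon bases of Mmp19 are shared with genes on the opposite strand. Because the strand setting of the quantification was not given, Mmp19 is uncertain in the same respect as Timp3.

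Adamts4, an aggrecanase, measured 0.650 and 0.672 scaled TPM in female sham and 0.444, 0.381 and 0.460 in female axotomy. It measured 0.382 and 0.349 in male sham and 0.949, 0.574 and 0.647 in male axotomy. The ranges did not overlap in either sex and the directions were opposite. The log2FC was -0.62 (SE 0.23, padj 0.0976) in females, and in males 0.98 (SE 0.24, padj 0.0102), and the difference of 1.60 (SE 0.33) had a padj of 0.18. The female call was lost in 7 of the 10 fits that left out a library (padj up to 0.358), and the male call in none. Adamts4 had 978 reads over the 10 libraries.

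The sheddases ADAM10 and ADAM17, which release Notch, TNF and growth factors of the EGF family from the membrane, were called higher in males with small changes. Adam10 measured 58.7 and 54.9 scaled TPM in male sham and 84.5, 64.8 and 74.6 in male axotomy (log2FC 0.39, SE 0.12, padj 0.0242), and its log2FC in females was 0.02 (SE 0.11, padj 0.929). Adam17 measured 11.8 and 11.1 in male sham and 14.8, 11.9 and 14.5 in male axotomy (0.27, SE 0.10, padj 0.0653), and its log2FC in females was -0.05 (SE 0.10, padj 0.786). Both calls depended on the scaling. The Adam17 call was also lost in 6 of the 10 fits that left out a library and in a fit of the libraries compared alone. On the deposited TPM scale the log2FC was 0.19 for Adam10 (padj 0.19) and 0.06 for Adam17 (padj 0.673), in a range over all alternatives of 0.00333 to 0.19 and 0.00433 to 0.673. Without male sham 2, padj for Adam10 was 0.189.

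The other active ADAMs changed less. Adam9 and Adam15, both widely expressed, measured 53.1 to 63.3 and 62.5 to 73.4 scaled TPM over all libraries and were not called in either sex. Adam19, a sheddase of neuregulin, measured 25.4 and 27 in female sham and 33.4, 31.2 and 34.0 in female axotomy (log2FC 0.33, SE 0.11, padj 0.0792), and its male groups overlapped (0.10, SE 0.11, padj 0.515). The Adam19 call was lost in 7 of the 10 fits that left out a library and on the deposited TPM scale (padj up to 0.379). Adam12, Adam28 and Adam33 had group means under 3 TPM and were not called, with padj between 0.189 and 0.968. Of the 9 ADAM sheddases, 2 were called higher in females (22.2%, beside 10.5% of all genes) and 3 in males (33.3%, beside 22.6%), and none was called lower by edgeR.

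The neuronal ADAMs without protease activity were called lower after axotomy, Adam11 and Adam23 in both sexes and Adam22 in males. Adam11 measured 93.2 and 93.0 scaled TPM in female sham and 59.3, 64.1 and 78.6 in female axotomy, and 98.6 and 93.3 in male sham and 46.3, 69.3 and 54.9 in male axotomy. Adam23 measured 138 and 155 in female sham and 107, 115 and 112 in female axotomy, and 160 and 169 in male sham and 97.3, 131 and 94.6 in male axotomy. For both genes every axotomy library lay below every sham library. Adam11 fell by 0.47 on the log2 scale in females (SE 0.15, padj 0.0719) and by 0.76 in males (SE 0.15, padj 0.00488). Adam23 fell by 0.39 in females (SE 0.13, padj 0.0647) and by 0.61 in males (SE 0.12, padj 0.00486).

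Adam22 measured 96.8 and 109 scaled TPM in female sham and 78.9, 90.1 and 99.8 in female axotomy, which overlapped. In males it measured 111 and 111 in sham and 73.1, 92.4 and 78.9 in axotomy. The log2FC was -0.20 (SE 0.12, padj 0.281) in females, and in males -0.45 (SE 0.12, padj 0.0141). Male axotomy 2 was the least reduced male library for all 3 genes. The 3 male calls held in every alternative, whereas the female call of Adam11 was lost in 6 and that of Adam23 in 7 of the 10 fits that left out a library, with padj up to 0.284 and 0.384. Of the 8 sensory neuron markers, 4 were called lower in females (50%, beside 9.7% of all genes) and 5 in males (62.5%, beside 19.4%), and 1 was called higher in males. Of the LGI ligands, Lgi3 was lower in both sexes, Lgi2 was lower in males and Lgi4 was higher in males.

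Of the 6 membrane-type MMPs, Mmp16 was called higher, Mmp15 was called lower in both sexes, and Mmp24 and Mmp25 were called lower in males. The share called lower was 50% in males (beside 19.4% of all genes) and 16.7% in females (beside 9.7%). The share called higher was 16.7% in each sex, beside 22.6% of all genes in males and 10.5% in females. Mmp15 (MT2-MMP) measured 32.4 and 34.0 scaled TPM in female sham and 25.6, 27.9 and 27.6 in female axotomy, and 35.7 and 34.7 in male sham and 28.1, 31.2 and 27.5 in male axotomy. It was lower in both sexes without overlap, by 0.30 in females (log2FC -0.30, SE 0.07, padj 0.0271) and 0.28 in males (-0.28, SE 0.07, padj 0.0142). Its male call was lost without male sham 1 (padj 0.103). The female call was lost in 3 of the fits that left out a library, with padj up to 0.237. Mmp24 (MT5-MMP), known from peptidergic sensory neurons, had a log2FC of -0.39 in males (SE 0.09, padj 0.008) and -0.12 in females (SE 0.09, padj 0.4). Mmp25, with Mmp15 the most abundant of the Mmp genes, measured 35.5 and 38.1 in male sham and 30.8, 35.1 and 26.4 in male axotomy (log2FC -0.26, SE 0.10, padj 0.0783). That call was lost in 7 of the 10 fits that left out a library (padj up to 0.329), with a replicate block (0.132) and in a fit of the libraries compared alone. In females Mmp25 measured 31.0 and 30.9 in sham and 35.4, 31.9 and 32.5 in axotomy (0.10, SE 0.10, padj 0.555).

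Of the 19 ADAMTS genes, 1 was called higher and 5 lower in females (5.26% and 26.3%, beside 10.5% and 9.7% of all genes). In males 4 were called higher and 5 lower (21.1% and 26.3%, beside 22.6% and 19.4%), shares near those of all genes. Adamts15, which cuts versican and aggrecan, measured 9.68 and 9.10 scaled TPM in female sham and 5.44, 5.97 and 6.05 in female axotomy, and 8.72 and 8.73 in male sham and 5.02, 6.23 and 5.77 in male axotomy. All axotomy libraries lay below all sham libraries. The log2FC was -0.69 (SE 0.10, padj 0.00216) in females, and in males -0.62 (SE 0.10, padj 0.00166), and both calls held in every alternative. Adamts1 and Adamts15, which share proteoglycan substrates, thus changed in opposite directions in both sexes.

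The procollagen N-proteinases trim newly made collagen. Adamts2 measured 3.19 and 4.26 scaled TPM in female sham and 2.35, 2.23 and 2.37 in female axotomy (log2FC -0.68, SE 0.16, padj 0.0195). In males it measured 3.37 and 3.69 in sham and 2.89, 3.22 and 4.12 in axotomy, which overlapped (-0.05, SE 0.16, padj 0.836). The female call was lost without female sham 2 (padj 0.224). Adamts3 measured 4.47 and 3.94 in male sham and 2.55, 2.94 and 2.44 in male axotomy (-0.67, SE 0.13, padj 0.0046). In females Adamts3 measured 3.46 and 3.54 in sham and 2.81, 2.90 and 3.57 in axotomy, which overlapped (-0.18, SE 0.14, padj 0.422).

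Adamts10, a microfibril-associated member, was lower in females (log2FC -0.31, SE 0.11, padj 0.0838) and had a log2FC of 0.00 in males (SE 0.11, padj 0.977). Its female call was lost in 10 of the 18 alternatives, 7 of which left out a library (padj up to 0.339). Adamts16, Adamts18 and Adamts6 lay under 1 TPM. Adamts16 had a log2FC of -1.15 in males (SE 0.25, padj 0.00634) at 0.515 and 0.407 scaled TPM in sham and 0.250, 0.182 and 0.191 in axotomy. Counted over protein-coding transcripts alone, the log2FC of Adamts16 in males was 0.85 (padj 0.57). Adamts18 in males (-0.97, SE 0.29, padj 0.0274) lost its call without male sham 2 (padj 0.175). Adamts6 was called lower in females (-0.52, padj 0.081) and males (-0.44, padj 0.0858), and over protein-coding transcripts the female value was 0.05 (padj 0.976) and the male call was lost (padj 0.367). Leaving out a library lost the female call in 6 and the male call in 7 of 10 fits (padj up to 0.357 and 0.319).

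**Figure D5:**
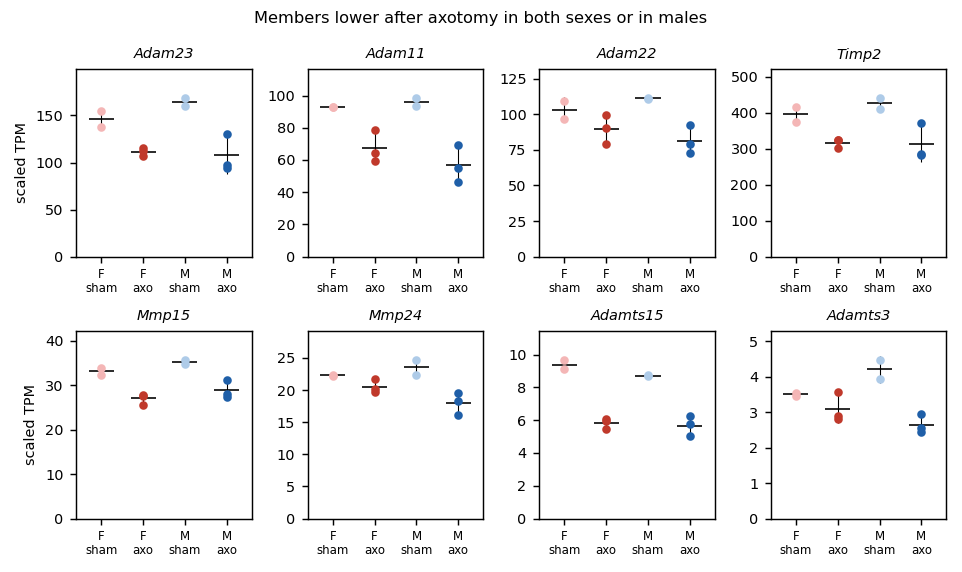
Scaled TPM (vertical axes, from 0) of 8 genes in each library by sex (F, M) and surgery (axo, axotomy), with horizontal bars at group means and vertical lines of 1 SD. Adam23, Adam11, Timp2, Mmp15 and Adamts15 lie lower in axotomy in both sexes, and Adam22, Mmp24 and Adamts3 were called lower in males.

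The test of the sex difference itself, male minus female log2FC, called 0 of the 55 genes (edgeR), where 0.072% of all genes were called. At an unadjusted p under 0.05, 14 of the 55 passed, and DESeq2 called 4 (Adamts4, Adamts12, Mmp2 and Mmp19). The shares of all genes under these 2 rules are not given here, so neither count sets the 55 genes apart. The differences were 1.60 (SE 0.33, padj 0.18) for Adamts4, 1.31 (SE 0.36, padj 0.256) for Mmp2, 1.20 (SE 0.36, padj 0.264) for Mmp19 and 1.0 (SE 0.27, padj 0.253) for Adamts12. Without male axotomy 2, edgeR called 9 genes, with padj 0.0221 for Adamts4, 0.0254 for Mmp2, 0.0402 for Mmp19 and 0.0711 for Adamts12. The share of all genes called in that fit is not given here, so the 9 calls do not set these genes apart. For 6 genes, sham and axotomy did not overlap in either sex and stood in opposite order: Mmp14, Mmp23, Adamts4 and Adamts12 were lower in female and higher in male axotomy, and Mmp25 and Adamts19 the reverse, with padj of the difference between 0.18 and 0.483. These were 10.9% of the 55 genes, and 2.44% of all genes tested showed such an order, both on scaled TPM. On the TPM as deposited, sham and axotomy overlapped for Mmp14 and Mmp23 in males and for Mmp25 and Adamts19 in females. Adamts4 and Adamts12 kept the opposite order there. The share of all genes on the deposited scale is not given here.

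Between sham males and females, 0 of the 55 genes were called by edgeR or DESeq2, and 0.0432% of all genes were called by edgeR. For 4 of the 55 the unadjusted p was under 0.05, and the share of all genes at that threshold is not given here. After axotomy, 3 genes were higher in males than females and none lower, where 1.3% of all genes were called higher and 0.331% lower. An unadjusted p under 0.05 was reached by 15 of the 55, again without a share of all genes to set beside it. Mmp14 (MT1-MMP), which activates pro-MMP2 at the cell surface, measured 13.8, 14.8 and 15.5 scaled TPM in female axotomy and 18.8, 20.5 and 21.8 in male axotomy, beside 16 and 18.8 in female sham and 18.0 and 18.7 in male sham. The log2 difference was 0.47 (SE 0.09, padj 0.0546). Neither sex alone passed for Mmp14 (log2FC -0.24, padj 0.125 in females and 0.15, padj 0.265 in males).

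Adamts12 measured 0.427, 0.544 and 0.461 scaled TPM in female axotomy and 0.684, 0.766 and 0.989 in male axotomy, beside 0.687 and 0.553 in female sham and 0.527 and 0.531 in male sham. Its log2 difference was 0.77 (SE 0.17, padj 0.0848), and it was called higher after axotomy in males (log2FC 0.62, SE 0.19, padj 0.0306). Adamts20, which cuts versican, measured 2.87, 2.99 and 2.56 in female axotomy and 3.66, 3.67 and 4.18 in male axotomy, beside 3.29 and 2.81 in female sham and 3.28 and 3.00 in male sham. Its log2 difference was 0.45 (SE 0.10, padj 0.0885), and its male log2FC was 0.29 (SE 0.11, padj 0.0759).

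All 3 differences between the sexes were without overlap, and none held in every alternative. On the deposited TPM scale padj was 0.161 for Mmp14, 0.135 for Adamts12 and 0.156 for Adamts20, and the male calls of Adamts12 (padj 0.116) and Adamts20 (padj 0.596) were lost as well. Over all alternatives padj ran from 0.000484 to 0.196 for Mmp14, 0.00433 to 0.232 for Adamts12 and 0.00621 to 0.245 for Adamts20. After axotomy in males, 22.6% of all genes were called higher and 19.4% lower. Among the markers, 9 of 10 were called higher for fibroblasts and meninges and 10 of 10 for macrophages. For myelinating Schwann cells 6 of 6 were higher, and for mast cells 5 of 6, with the other 1 called lower. Higher calls were fewer for satellite glia (2 of 5) and for neutrophils and monocytes (1 of 9). For smooth muscle and pericytes 2 of 6 were higher and 2 lower, and for endothelium 4 of 8 were lower. Between male and female axotomy, 1.3% of all genes were called higher in males. Among the markers, 4 of 10 for fibroblasts and meninges, 2 of 10 for macrophages, 4 of 6 for mast cells and 2 of 5 for satellite glia were. Of the 8 sensory neuron markers, 1 was called lower in males, beside 0.331% of all genes. The sex difference itself called 2 fibroblast markers and 1 satellite glia marker, all higher in males, beside 0.072% of all genes. The part of these cell types in the values of Mmp2, Mmp14, Mmp19, Adamts12 and Adamts20 was not tested.

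Several proteinases often studied in injured nerve were scarce in these ganglia. Mmp9, the gelatinase B of neutrophils and macrophages, lay between 0.623 and 2.13 scaled TPM, with its highest value in female axotomy 1, and was not called (log2FC 0.24, SE 0.46, padj 0.773 in females, and in males -0.14, SE 0.45, padj 0.839). Mmp8, the neutrophil collagenase, was also highest in female axotomy 1, at 2.34 against at most 1.61 in any other library. That library had the highest neutrophil and monocyte sum. Mmp12, the macrophage elastase, lay between 0.317 and 0.724 and was not called. Mmp3, stromelysin 1, had 27 reads over the 10 libraries, too few to be tested, with 0.141 scaled TPM in male axotomy 1 and at most 0.0621 elsewhere.

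Mmp3, Mmp8, Mmp12 and Mmp13 belong to a cluster of 10 Mmp genes on chromosome 9. Of these 10 genes, 5 had no reads, 3 were tested, none was called, and the highest group mean was 1.29 TPM. Smaller groups of neighbouring ADAM genes on chromosome 8, known from testis and sperm, were near silent too: of the 7 genes in the 2 groups with no tested gene, the highest group mean was 0.0275 TPM. A change in the silent genes was not detectable at this depth, where 3 counts correspond to 0.0333 to 0.0543 CPM.

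Promoter sequences of 5 genes are shown, 2 from this cluster and 3 of genes higher in both sexes, with the short motifs they hold. RefSeq start sites on GRCm38.p6 gave 250 bases upstream for 49 of the 79 genes (54 promoters) and for 18 of the 27 called genes. Both strands were searched for the AP-1 motif TGANTCA, the site of Fos and Jun dimers, and for the GC box GGGCGG, the site of Sp1, which do not overlap in their letters. The AP-1 motif was present in 8 of the 12 promoters of the chromosome 9 cluster (66.7%), in 22.2% of all promoters of the 79 genes and in 6.75% of all 32851 promoters. The GC box was present in none of the 12 cluster promoters, in 37% of the promoters of the 79 genes and in 32.7% of all promoters. Timp1, Adam8 and Adamts1, which were higher in both sexes, held a GC box and no AP-1 motif in this window. Of the 3 promoters of genes lower in both sexes, 2 held a GC box (Mmp15 and Timp2) and none the AP-1 motif. Mmp16 had no entry among the promoters. Capitals mark the AP-1 motif in Mmp3 and Mmp13 and the GC box on either strand in the other 3, each sequence ending at the base before the start site.
Timp1 promoter, chrX:20869916-20870165, plus strand: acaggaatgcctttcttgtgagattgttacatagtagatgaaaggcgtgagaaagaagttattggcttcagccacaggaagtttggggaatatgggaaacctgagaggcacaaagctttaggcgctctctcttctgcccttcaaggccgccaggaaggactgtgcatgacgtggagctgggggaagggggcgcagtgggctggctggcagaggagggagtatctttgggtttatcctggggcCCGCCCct
Adam8 promoter, chr7:139992563-139992812, minus strand: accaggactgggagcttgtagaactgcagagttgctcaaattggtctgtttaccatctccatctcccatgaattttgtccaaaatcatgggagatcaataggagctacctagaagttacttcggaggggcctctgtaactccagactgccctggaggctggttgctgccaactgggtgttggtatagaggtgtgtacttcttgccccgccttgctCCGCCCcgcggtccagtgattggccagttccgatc
Adamts1 promoter, chr16:85803114-85803363, minus strand: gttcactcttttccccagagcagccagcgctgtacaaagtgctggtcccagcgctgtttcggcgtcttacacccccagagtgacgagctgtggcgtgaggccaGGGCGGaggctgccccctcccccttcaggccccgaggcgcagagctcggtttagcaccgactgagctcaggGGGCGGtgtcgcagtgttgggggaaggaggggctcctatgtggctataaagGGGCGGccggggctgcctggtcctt
Mmp3 promoter, chr9:7445572-7445821, plus strand: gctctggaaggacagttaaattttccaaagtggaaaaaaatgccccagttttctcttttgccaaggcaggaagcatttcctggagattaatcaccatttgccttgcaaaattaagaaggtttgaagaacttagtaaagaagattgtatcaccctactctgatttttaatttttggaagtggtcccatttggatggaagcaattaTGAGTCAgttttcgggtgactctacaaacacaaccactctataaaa
Mmp13 promoter, chr9:7272264-7272513, plus strand: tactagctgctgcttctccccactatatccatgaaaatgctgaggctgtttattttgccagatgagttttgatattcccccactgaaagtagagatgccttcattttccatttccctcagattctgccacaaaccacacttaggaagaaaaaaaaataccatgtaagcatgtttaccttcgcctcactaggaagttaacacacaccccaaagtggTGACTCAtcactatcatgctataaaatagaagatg

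Of the 37 promoters of tested genes, 8.11% held the AP-1 motif and 54.1% the GC box. Of the 17 promoters of genes not tested, 52.9% held the AP-1 motif and none the GC box. Among the latter, Mmp1a, Mmp1b, Mmp3, Mmp7, Mmp10 and Mmp20 held the AP-1 motif and belong to the chromosome 9 cluster. The contrast is therefore not separate from that of the cluster. The STAT motif TTCNNNGAA was found in 5.56% of the promoters of the 79 genes and in 7.02% of all promoters, and the cyclic AMP response element TGACGTCA in none and in 1.55%. A match is a string of letters, and binding was not measured.

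Genes that act on the same system were followed in the same fit, as 61 genes in 7 groups, of which 56 were tested. In females 9 were called higher and 12 lower (16.1% and 21.4%), and in males 23 higher and 17 lower (41.1% and 30.4%), beside 10.5%, 9.7%, 22.6% and 19.4% of all genes. The plasminogen activators generate plasmin, which activates pro-MMPs. The urokinase receptor Plaur rose by a log2FC of 1.69 (SE 0.23, padj 0.00196) in females, and in males 1.70 (SE 0.23, padj 0.00103). The tissue plasminogen activator Plat rose by 0.29 (SE 0.09, padj 0.0563) in females, and in males 0.74 (SE 0.09, padj 0.000661).

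Among the astacin proteinases, which also process procollagen, Bmp1 rose (log2FC 0.57, SE 0.09, padj 0.00486 in females, and in males 0.95, SE 0.09, padj 0.000347) and its relative Tll1 fell (-1.01, SE 0.13, padj 0.00135 and -0.53, SE 0.13, padj 0.0101). Among the proteins that ADAMs and MMPs release from the cell surface, the EGF-family ligand Areg rose (1.42, SE 0.26, padj 0.00794 in females, and in males 1.98, SE 0.27, padj 0.00101), as did the syndecan Sdc1 (1.57, SE 0.20, padj 0.00147 and 0.94, SE 0.19, padj 0.00543). Of the 4 proteoglycans cut by ADAMTS enzymes, Bcan was lower in both sexes, Acan and Ncan were lower in males and Vcan was higher in males. Vcan measured 1.57 and 1.42 scaled TPM in male sham, 3.54, 3.96 and 4.60 in male axotomy, 2.37 and 1.49 in female sham and 1.44, 2.34 and 2.10 in female axotomy. Vcan (log2 difference 1.05, SE 0.20, padj 0.0617), the broad protease inhibitor A2m (0.75, SE 0.15, padj 0.0709) and the serine protease inhibitor Serpine2 (0.41, SE 0.08, padj 0.062) were higher in male than in female axotomy. These were 5.36% of the 56 tested genes, beside 1.3% of all genes, and the alternatives were not run for them. The sex difference did not pass for Vcan (1.41, SE 0.32, padj 0.19) or Serpine2 (0.37, SE 0.13, padj 0.312). A2m was called lower after axotomy in females (-0.63, SE 0.17, padj 0.0358) and higher in males (0.40, SE 0.17, padj 0.0969), and the difference of 1.03 (SE 0.24) did not pass (padj 0.216).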

How the data were processed

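RNA from 10 pools of DRG was sequenced after poly-A selection and TruSeq stranded library preparation. Per the labels, the authors used Trimmomatic 0.39 for trimming and Salmon 1.3.0 to quantify transcripts on Gencode M27, with sequence and GC bias correction. They deposited estimated counts, TPM and effective length per transcript for each library. The strand setting was not given in the sources used here. Samples were grouped by the sex and surgery in the labels. The labels number the libraries within each group, each from separate mice.

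Estimated counts were summed per gene and rounded. All 10 libraries were fitted in 1 model of 4 group means with edgeR 4.0.16 in R 4.3.3 (TMM, offset from the mean effective length, filterByExpr with a minimum count of 10, robust quasi-likelihood F test), and p-values were adjusted by Benjamini-Hochberg over 20836 genes and called at padj under 0.1, the study's threshold. DESeq2 1.42.0, which the authors used, was an alternative. Others were RLE factors, no filter, no length offset, protein-coding transcripts alone, the libraries compared alone, a replicate block, padj under 0.05 and leaving out each library; scaling by TPM was chosen after seeing the data. Alternatives were run for the 79 genes. The deposited TPM were summed per gene and multiplied by a library factor. The common biological coefficient of variation was 0.129, and 3 counts equal 0.0333 to 0.0543 CPM. The fit was tested on simulated data. Positions came from Gencode M21 by gene ID and promoters from RefSeq, on an older build than that of the files.

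The gene rule and the lists were chosen with earlier results of these data known. Values were given for the TIMPs, a fixed list of well-known members, every called gene of at least 1 TPM, the 10 highest by level, and genes called between the sexes. Among other genes of the system, those with the 4 smallest padj in each sex or called between the sexes were given, except 1 gene that is not reported here. Genes named outside these rules (Adamts6, Adamts18, Adamts19, Mmp8, Mmp13, Mmp23, Lgi and proteoglycan genes) were chosen after their values were seen. Each sham group held 2 libraries, so the spread was estimated across all groups.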

Additional observations from a re-analysis of the deposited data

How the results depend on the processing

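Timp1, Adam8, Mmp16, Adamts1 and Adamts15 were called in both sexes in each of the 18 alternatives. So were Mmp2, Mmp19, Adamts4, Adam11, Adam22, Adam23, Adamts3 and Mmp24 in males. In all, 5 of 14 female and 13 of 24 male calls held throughout. Leaving out 1 library gave 5 to 16 female calls, 15 to 24 male calls, 0 to 9 calls of the sex difference and 0 to 16 calls between the sexes after axotomy. The female count was 6 without female sham 1, 5 without female sham 2, 7 without either male sham library, 6 without female axotomy 1 and 7 without female axotomy 2. The male count was 15 without male sham 2. Without male axotomy 2 the sex difference had 9 calls and the comparison of the sexes after axotomy had 16. That last comparison had 0 calls without either male sham library, any of the 3 female axotomy libraries or male axotomy 3, and 1 without either female sham library or male axotomy 1. With padj under 0.05 the counts were 7 in females and 0 between the sexes. DESeq2 called 4 genes in the sex difference and 7 between the sexes after axotomy, and the fit without a filter called Adamts4 alone in the sex difference, a count of 1. Between the sexes after axotomy, 0 genes were called with TPM scaling (chosen after seeing the data) or in a fit of the libraries compared alone, and 6 without the length offset. That fit of the libraries compared was not run for the sex difference, which needs all 4 groups. The shares of all genes called in the alternatives are not given in this section. A count that moves between alternatives, here or with the replicate block below, therefore does not set these genes apart.

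With a replicate block, the counts were 16 in females, 23 in males, 0 in the sex difference and 5 between the sexes after axotomy (Mmp2 and Adamts2 in addition). With group means taken out, same-numbered libraries correlated at r -0.089 to 0.129 (median -0.005, 13 pairs). The 24 other pairs correlated at -0.152 to 0.168 (median 0). In a sham group of 2 libraries these values mirror each other by construction, so they cannot decide whether same-numbered libraries were paired. Female axotomy 1 correlated best with male axotomy 1 (0.122). Female axotomy 2 and 3 did not correlate best with the male axotomy library of their own number. Signs reversed for Adamts16 in males (0.852) and Adamts6 in females (0.045), both over protein-coding transcripts alone, and for Timp3 in males with TPM scaling (-0.022). The cause of these changes was not tested. With 2 sham libraries per sex, small changes near padj 0.1 depended on which library was present, and genes with few reads could not be tested.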
